A study of Mus musculus with 22 samples.

Results

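The genes described here are 10 genes of the cells that build the blood vessels of the brain, read out of the 20129 genes that carried a RefSeq-named probe on the arrays. They were taken by name from a list, with no value in the rule, although the list was drawn up with earlier results of these data known. It holds 8 endothelial genes (Cdh5, Cldn5, Pecam1, Slco1c1, Slc2a1, Mfsd2a, Flt1 and Kdr) and 2 pericyte genes (Pdgfrb and Rgs5). Each gene was read from the RefSeq-identified probe with the highest median over the 22 arrays, and all 10 probes were well above background on all 22 arrays. Kdr and Slco1c1 each had 1 further RefSeq probe, which is shown beside the first.

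Endothelial cells line the vessels and, in the brain, form the blood-brain barrier, a wall of cells sealed by tight junctions and equipped with carriers that bring glucose, lipids and hormones into the tissue. Pericytes sit on the outer face of capillaries, are recruited by platelet-derived growth factor from the endothelium and are needed for the barrier to close. Around birth vessels still sprout into the brain under vascular endothelial growth factor (VEGF), so junction proteins, barrier carriers, VEGF receptors and pericyte genes are commonly used as a readout of vessel content and vessel state.

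Transcriptome Tomography cuts a whole brain along a body axis into slabs, called fractions, and measures the total RNA of each fraction on a microarray. Male C57BL/6J mice, an inbred strain, gave 3 brains and 22 fractions in all, with no treatment and no genetic change named. Mouse 1 was cut into 10 coronal fractions, mouse 2 into 6 horizontal ones and mouse 3 into 6 sagittal ones. No fraction was measured in a further animal or on a further array, so the number of arrays limits the precision. By their titles the mice were 7 days old, and by the age entry of the labels 3 days. The labels gave a slab as 100 slices of 5 µm, which makes 500 µm, and the methods of the study name thicker fractions, so positions are given as fraction numbers. Coronal fraction 10 pooled slabs 10 and 11, sagittal fraction 1 pooled slabs 1 and 2, and sagittal fraction 6 pooled slabs 7 to 9. The labels did not say where fraction 1 lies. Of 7 hindbrain genes, mostly Hox genes, 5 were highest in coronal fraction 1. Of 5 olfactory bulb genes 4 were highest in coronal fraction 10, and of 6 hypothalamic and ventral genes 4 were highest in horizontal fraction 6.

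A level here is the log2 of a probe's processed intensity minus the log2 of the array's 75th percentile, so that 0 is the 75th percentile of the array. Levels of different probes are not set against each other. An array had between 53.2% and 75.5% of its 55600 probes well above background. On 7 arrays the spike-in RNA added in known amounts gave a slope outside the accepted range. These arrays, called out of range here, were horizontal fractions 1 to 3, coronal fractions 1 and 2, and sagittal fractions 1 and 3. They recur below because many of the genes were low on some of them, mainly coronal fraction 2 and horizontal fraction 2. The arrays lay on 4 slides, with all sagittal arrays on 1 slide, all horizontal arrays on another and the coronal arrays on 3.

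The stretches upstream of 4 of the genes are shown because these genes carry the position results: Cldn5 was past the threshold along the sagittal series, Slco1c1 and Flt1 along the coronal series, and Kdr varied most. RefSeq promoter entries (build GRCm38.p6) were found for 7 of the 10 genes; Cdh5, Pecam1 and Pdgfrb had no entry. Each line gives the 250 bases before the annotated start, 5′ to 3′ on the strand of the gene. The capitals mark matches, on either strand, to 6 motifs: the ETS motifs CAGGAA and CCGGAA (ERG, an ETS factor, is a regulator of endothelial identity), the TCF/LEF motif CTTTGA (the readout of the Wnt signal that drives barrier formation), the TATA box TATAAA, the CCAAT box CCAAT and the GC box GGGCGG. A match is a description of letters and not a site shown to be used.
Cldn5, chr16:18776597-18776846, + strand: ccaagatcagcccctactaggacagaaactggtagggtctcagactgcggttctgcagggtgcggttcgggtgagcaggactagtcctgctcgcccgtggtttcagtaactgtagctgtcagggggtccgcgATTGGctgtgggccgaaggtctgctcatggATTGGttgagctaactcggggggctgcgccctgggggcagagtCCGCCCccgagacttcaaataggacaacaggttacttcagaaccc
Slco1c1, chr6:141524104-141524353, + strand: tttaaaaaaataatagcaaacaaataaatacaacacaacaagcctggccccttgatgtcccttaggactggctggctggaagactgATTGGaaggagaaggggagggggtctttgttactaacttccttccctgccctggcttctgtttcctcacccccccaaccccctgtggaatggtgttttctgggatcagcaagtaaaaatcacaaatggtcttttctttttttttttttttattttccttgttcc
Flt1, chr5:147726012-147726261, - strand: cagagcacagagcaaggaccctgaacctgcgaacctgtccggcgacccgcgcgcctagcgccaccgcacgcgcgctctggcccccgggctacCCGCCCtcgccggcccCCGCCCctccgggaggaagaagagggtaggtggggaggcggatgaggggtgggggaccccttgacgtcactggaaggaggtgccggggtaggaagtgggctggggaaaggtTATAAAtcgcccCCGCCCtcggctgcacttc
Kdr, chr5:75978456-75978705, - strand: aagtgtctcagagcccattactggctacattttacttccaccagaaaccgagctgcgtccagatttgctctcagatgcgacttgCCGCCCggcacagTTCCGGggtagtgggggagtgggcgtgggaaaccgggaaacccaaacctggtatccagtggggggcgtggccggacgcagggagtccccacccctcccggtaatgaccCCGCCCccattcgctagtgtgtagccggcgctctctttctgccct

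The Cldn5 stretch held 2 CCAAT boxes, beginning 118 and 88 bases before the start, and 1 GC box at 45 bases, all on the opposite strand. The Slco1c1 stretch held 1 CCAAT box, at 164 bases, and was the poorest in G and C of the 7 (42.8%). The Flt1 stretch was the richest (70.4%), with a TATA box 31 bases before the start and 3 GC boxes. The Kdr stretch held an ETS motif of the CCGGAA type at 153 bases and 2 GC boxes. Of the other members, Mfsd2a and Rgs5 held the TCF/LEF motif and Rgs5 also the ETS motif CAGGAA. Among 32851 promoters of this length, CAGGAA was in 25.7%, CCGGAA in 12%, CTTTGA in 13.8%, TATAAA in 12.4%, CCAAT in 33.8% and GGGCGG in 32.7%. The GC box was in 3 of the 4 windows printed, and no motif was in all 4.

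Most of the 10 genes varied less between fractions than the median probe. The SD of the level over the 22 fractions ran from 0.20 log2 units for Pecam1 to 0.85 for Kdr, with a median of 0.32. The median SD of all 39621 probes tested (those well above background in at least 1 fraction of each series) was 0.52, and 9 of the 10 genes were below it. That set of probes also holds dim ones, and each of the 10 genes still spanned at least 0.92 log2 units over the 22 fractions, from 0.92 for Pecam1 and Rgs5 to 4.27 for Kdr. In a tissue sample, fewer vessel cells and less RNA per cell cannot be told apart, so each level below is that of the whole fraction.

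**Figure D1:**
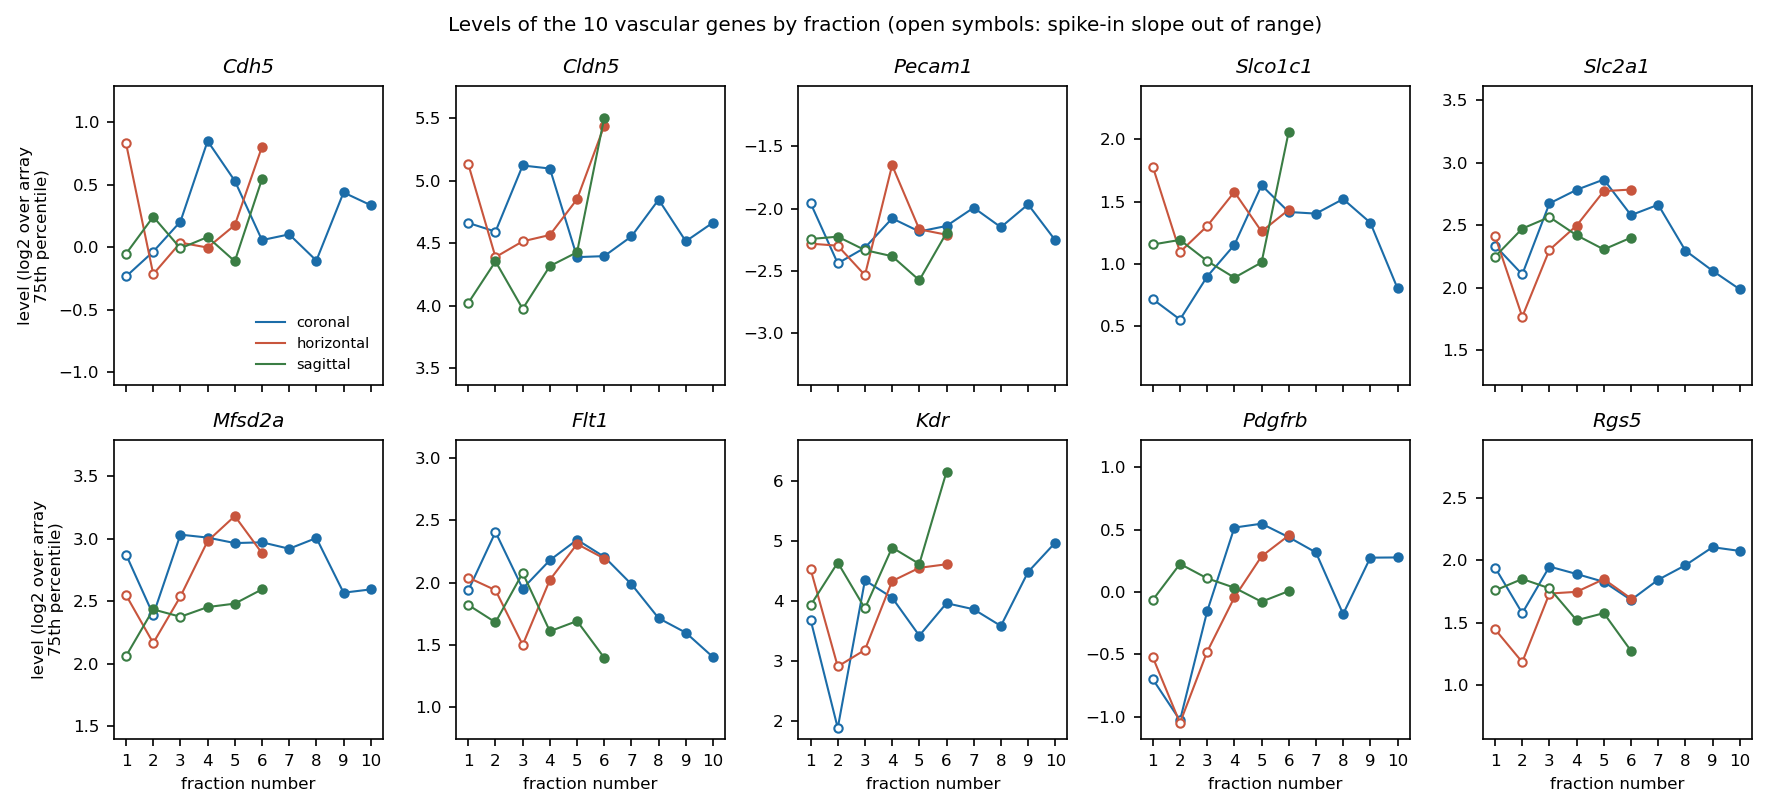
Level of each of the 10 genes (log2 of processed intensity over the array's 75th percentile) against fraction number in the coronal, horizontal and sagittal series, 1 array per point. Open symbols are the 7 arrays whose spike-in slope was out of range, and every panel has its own scale, the widest for Kdr. Kdr and Pdgfrb reach their lowest values at open symbols, and Cldn5, Slco1c1 and Kdr are highest in the sagittal series in fraction 6.

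Position was tested for all 39621 probes in 1 limma model, which gave every series its own straight and curved (quadratic) component along the slabs, and a gene was past the threshold at a Benjamini-Hochberg adjusted p under 0.05. The fitted range is the difference between the highest and the lowest point of the fitted curve. Along the coronal series 3 of the 10 genes were past the threshold (Slco1c1, Flt1 and Pdgfrb), where 19.8% of all probes were. Along the horizontal series 0 of 10 were, where 6.57% of all probes were. An unadjusted p under 0.05 was found there for 4 of the 10 and for 15041 of the 39621 probes. For the sagittal linear term, which runs from side to side, 1 of 10 was (Cldn5), where 10.2% of all probes were. For the sagittal quadratic term, which sets both sides against the middle, 0 of 10 were, where 0.0303% of all probes were. Here 2 of the 10 and 5859 of the 39621 probes had an unadjusted p under 0.05. The counts among the vessel genes were near or below those shares and are no result about the group. They also moved with the processing. With the signal of a107, a dim spike-in probe, as a covariate 0 of 10 were past the threshold in all 4 tests, where 10.8%, 0.151%, 6.25% and 0.0202% of all probes were (coronal, horizontal, sagittal linear and sagittal quadratic). On the 15 arrays in range Slc2a1 alone was, along the coronal series, where the shares of all probes were 10.4%, 0.0328%, 8.67% and 0.00252%. With every series fitted by itself 0 of 10 were, where 1.6% of all probes were along the coronal series and 0% in the other 3 tests.

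Of the junction and adhesion genes, Cldn5 and Cdh5 were alike across fractions (r = 0.62) and Pecam1 was not like either. Cldn5 encodes claudin-5, the main tight junction protein of brain endothelium. Its level in the sagittal series had a lowest value of 3.97 (fraction 3), a median of 4.33 and a highest value of 5.51 (fraction 6). The other 5 sagittal fractions lay between 3.97 and 4.43, so that fraction 6 was clear of them. The sagittal linear term was 1.31 ± 0.33 log2 units from the first to the last slab (SE, limma, adjusted p = 0.0192). Without sagittal fraction 6 the term was 0.32 with an adjusted p of 0.707, so the call rested on that fraction, and without scaling of the arrays it was 0.42 (0.468). Fraction 1, at the other end of the same series, was at 4.02, and the quadratic term was 0.56 ± 0.25 (SE, adjusted p = 0.304).

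Along the horizontal series Cldn5 was 5.13 in fraction 1 and 5.44 in fraction 6, with 4.39 to 4.85 in between. Both ends were thus above all inner fractions, but the horizontal test missed the threshold (adjusted p = 0.0841). Along the coronal series it lay between 4.39 and 5.12, highest in fractions 3 and 4, with an adjusted p of 0.803. Cdh5, which encodes VE-cadherin, the adherens junction protein that holds endothelial cells together, had its highest horizontal and sagittal levels in the end fractions too. Its horizontal levels were 0.83 in fraction 1 and 0.80 in fraction 6, against -0.22 to 0.18 in fractions 2 to 5. Its coronal levels ran from -0.24 in fraction 1, with a median of 0.15, to 0.85 in fraction 4. Cdh5 passed no test (adjusted p = 0.536 coronal, 0.110 horizontal and 0.564 sagittal linear).

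Several of the fractions with high Cldn5 or Cdh5 were also high in genes of the meninges, the fibroblast membranes around the brain. The median of 8 meningeal fibroblast markers (collagens, Dcn, Lum and others) was 1.22 log2 units above its series median in coronal fraction 4, 0.79 in horizontal fraction 1, 1.84 in horizontal fraction 6 and 1.00 in sagittal fraction 6. It was 0.18 in coronal fraction 3, where Cldn5 had its highest coronal level. In coronal fractions 5 and 9, next highest for Cdh5, it was 0.24 and -0.02. The summed level of the 8 markers, in multiples of the array's 75th percentile, ran from 43.2 to 142 in the coronal, 40.3 to 231 in the horizontal and 46.9 to 122 in the sagittal series, and all 8 were well above background on all arrays. Correlations were taken across the 22 arrays with the mean over the genes of a list, after the mean of each series was removed. With the mean of the meningeal markers r was 0.85 for Cdh5 and 0.74 for Cldn5, and on the 15 arrays in range 0.90 and 0.65. These fractions are neighbours from 3 brains and share arrays, so r is a description only. The meninges were not the only list these genes ran with. Cdh5 had r = 0.89 with the mean of the other pericyte genes (0.94 in range), and Cldn5 had 0.82 with that of the other endothelial genes (0.85 in range). For Cldn5 r was also 0.66 with the neutrophil mean and 0.67 with the red blood cell mean. On the arrays in range these were 0.87 and 0.78, above the meningeal value. The part of meningeal tissue and of blood in the Cldn5 and Cdh5 levels was not tested.

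Pecam1 encodes CD31, an adhesion molecule of endothelium also made by platelets and some leukocytes. It was the flattest of the 10. Its levels ran from -2.57 to -1.65, and only 3.79% of all probes had a smaller SD. Its highest value, in horizontal fraction 4, was -1.65, with the other horizontal fractions between -2.53 and -2.17. Pecam1 did not follow the other junction genes: r was 0.05 with Cdh5 and 0.02 with Cldn5.

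Of the barrier carriers, Slco1c1 encodes OATP1C1, which carries thyroxine across the barrier. It had the lowest adjusted p of the 10 in the coronal test. Its coronal levels were lowest in fraction 2 (0.56), with a median of 1.24, and highest in fraction 5 (1.63). Fractions 5 to 9 were all between 1.33 and 1.63, while fractions 1, 2, 3 and 10 were between 0.56 and 0.90. The fitted range was 1.00 log2 units with its peak at fraction 6 (adjusted p = 0.0221). Without coronal fraction 2 the adjusted p was 0.0577, and on the arrays in range the fitted range was 0.71 with an adjusted p of 0.0566. The call was also lost with median centring (0.0512), the series alone (0.0934), the a107 covariate (0.136) and linear terms alone (0.388). Of 14 alternatives other than leaving out fractions, 8 kept it. The other Slco1c1 probe had a similar range (1.04, adjusted p = 0.0666) but another coronal shape, with its fitted peak at fraction 8, its highest level in fraction 9 (1.45) and fraction 10 (0.99) above fraction 7 (0.92). Over all fractions r between both probes was 0.85.

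In the sagittal series Slco1c1 was 2.06 in fraction 6 and between 0.89 and 1.19 in the other 5. Neither sagittal term was past the threshold (adjusted p = 0.161 linear and 0.171 quadratic). The other probe was also highest there, at 2.40 against a highest value of 1.39 in the other sagittal fractions. Both probes thus set this fraction apart from its series.

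Slc2a1 encodes GLUT1, the glucose carrier of the barrier, and Mfsd2a a lipid carrier that is also needed to hold down transcytosis in brain endothelium. Slc2a1 had its coronal highest level in fraction 5 (2.87), a median of 2.46 and its lowest in fraction 10 (1.99). Fractions 3 to 7 lay between 2.58 and 2.87 and fractions 8 to 10 between 1.99 and 2.30, and the test narrowly missed the threshold (range 0.84, adjusted p = 0.0518). It was past the threshold with quantile normalization (0.0339), with normexp background correction (0.0276), with probes detected on all arrays (0.0313) and on the arrays in range (0.0416). It was farther from the threshold with the slide as a block (0.161), the a107 covariate (0.125), the series alone (0.134), median centring (0.133) and linear terms alone (0.500).
Mfsd2a was flat over coronal fractions 3 to 8 (2.92 to 3.03) and lower in fractions 2, 9 and 10 (2.39, 2.57 and 2.59), with an adjusted p of 0.314. Its sagittal levels ran from 2.06 in fraction 1, with a median of 2.44, to 2.59 in fraction 6. Slc2a1 and Mfsd2a were the most alike of all 45 pairs of members, with r = 0.81 after centring each series and 0.70 on the arrays in range. Both were also low where the spike-in background was high: r with the a107 signal was -0.64 for Slc2a1 and -0.81 for Mfsd2a. The part of the spike-in background in their shared profile was not tested.

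The VEGF receptors differed from each other when Kdr was read from its first probe. Flt1 encodes VEGFR1, which binds VEGF tightly and acts in part as a decoy, and Kdr encodes VEGFR2, the receptor that passes on the growth signal. Flt1 had its coronal highest level in fraction 2 (2.40), a median of 1.97 and its lowest in fraction 10 (1.40). From fraction 5 (2.34) to fraction 10 every fraction was lower than the one before. The coronal range was 0.90 log2 units (adjusted p = 0.0340), with a linear term of -0.70 ± 0.22 (SE). The call was lost when any of coronal fractions 2, 4, 5, 6, 7, 9 or 10 was left out (adjusted p up to 0.0965) with the slide as a block (0.0902) and on the arrays in range (0.0523), while the fitted range stayed between 0.68 and 0.97 over all fractions left out in turn.

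Kdr varied more than 72.2% of all probes. In the coronal series its lowest value was 1.88 (fraction 2), its median 3.91 and its highest value 4.97 (fraction 10). In the sagittal series it was 6.15 in fraction 6 and between 3.88 and 4.89 in the other 5. No test of Kdr was past the threshold: the coronal range was 1.49 (adjusted p = 0.206), the horizontal range 1.43 (0.336) and the sagittal linear term 1.96 ± 0.83 (SE, adjusted p = 0.163). Across the 22 arrays Kdr, read from its first probe, and Flt1 had the lowest r of the 45 pairs, -0.41, and -0.63 on the arrays in range.

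The size and the shape of the Kdr swings depended on the probe. The first probe ran from 1.88 to 6.15 over the 22 arrays and the other from 1.12 to 2.19, with r = 0.68 between them after centring. In sagittal fraction 6 the other probe was at 1.95, against 1.12 to 1.60 in the other 5 fractions, and its sagittal linear term was 0.63 (adjusted p = 0.275). In the coronal series the other probe was highest in fraction 4 (2.19), where the first was highest in fraction 10. In coronal fractions 4 and 5 the other probe was at 2.19 and 2.11 and Flt1 at 2.18 and 2.34, both high in their series. In fraction 2 the other probe was at 1.31 and Flt1 at 2.40. The negative r with Flt1 is that of the first probe only, and r with the other probe was not analysed. Both probes were lowest of the coronal fractions in fraction 2. Which transcripts each probe detects was not analysed here.

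**Figure D2:**
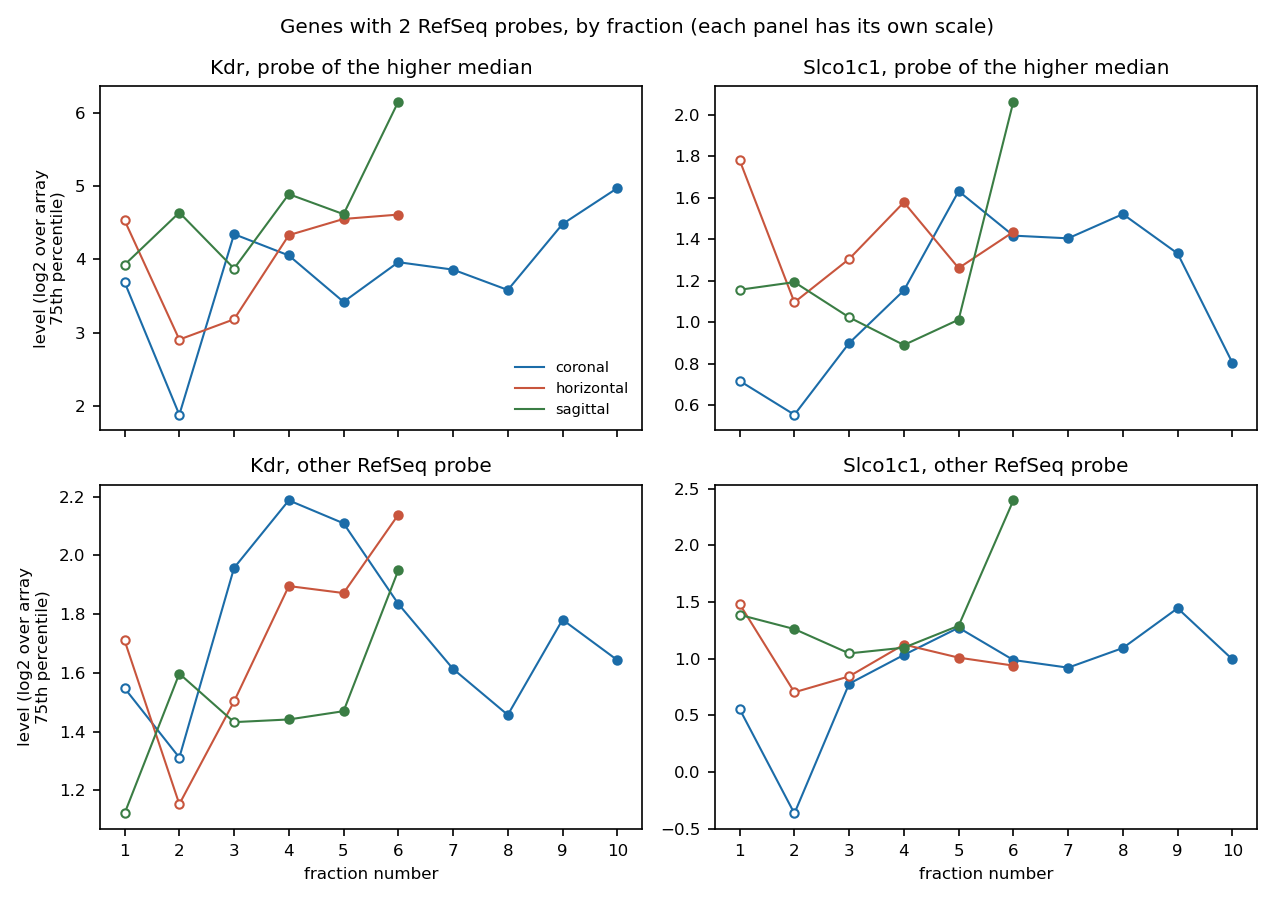
Level of both RefSeq probes of Kdr (left) and Slco1c1 (right) against fraction number, on scales of their own; open symbols are arrays whose spike-in slope was out of range. The upper Kdr probe spans 1.88 to 6.15 and the lower 1.12 to 2.19, and both Slco1c1 probes are highest in sagittal fraction 6.

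Of the pericyte genes, Pdgfrb encodes the receptor through which pericytes are recruited. Its coronal levels were lowest in fraction 2 (-1.03), with a median of 0.28, and highest in fraction 5 (0.55). Fractions 1 and 2 (-0.70 and -1.03) were below all others, which lay between -0.18 and 0.55. The fitted range was 1.27 log2 units (adjusted p = 0.0320). Fractions 1 and 2 are the coronal arrays with the slope out of range. On the arrays in range the coronal range of Pdgfrb was 0.21 (adjusted p = 0.829), and the call was also lost without any of coronal fractions 1, 2, 5, 6, 7 or 9 (adjusted p up to 0.102).

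Along the horizontal series Pdgfrb went from -1.05 in fraction 2, with a median of -0.26, to 0.45 in fraction 6. Each fraction from 2 to 6 was higher than the one before, with a linear term of 1.33 ± 0.38 (SE) and an adjusted p of 0.0732. The 3 lowest horizontal fractions were those with the slope out of range, and r of Pdgfrb with the a107 signal was -0.74. In the sagittal series, by contrast, Pdgfrb spanned only 0.30 log2 units. Sagittal fractions 1 and 3, also out of range, were at -0.06 and 0.11, against -0.08 to 0.22 in the other sagittal fractions. At the first coronal and horizontal fractions the slope and the position cannot be told apart.

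Rgs5 encodes a regulator of G-protein signalling that marks pericytes. Its coronal levels lay between 1.58 (fraction 2) and 2.11 (fraction 9), its horizontal levels between 1.18 (fraction 2) and 1.85 (fraction 5) and its sagittal levels between 1.27 (fraction 6) and 1.85 (fraction 2). No test was past the threshold (adjusted p = 0.335 coronal, 0.201 horizontal and 0.162 sagittal linear). Rgs5 was lowest in the sagittal fraction in which Cldn5, Slco1c1 and Kdr were highest. Its sagittal linear term was -0.54 ± 0.23 (SE). Between Pdgfrb and Rgs5, r was 0.48 over all arrays and -0.11 on the arrays in range.

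**Figure D3:**
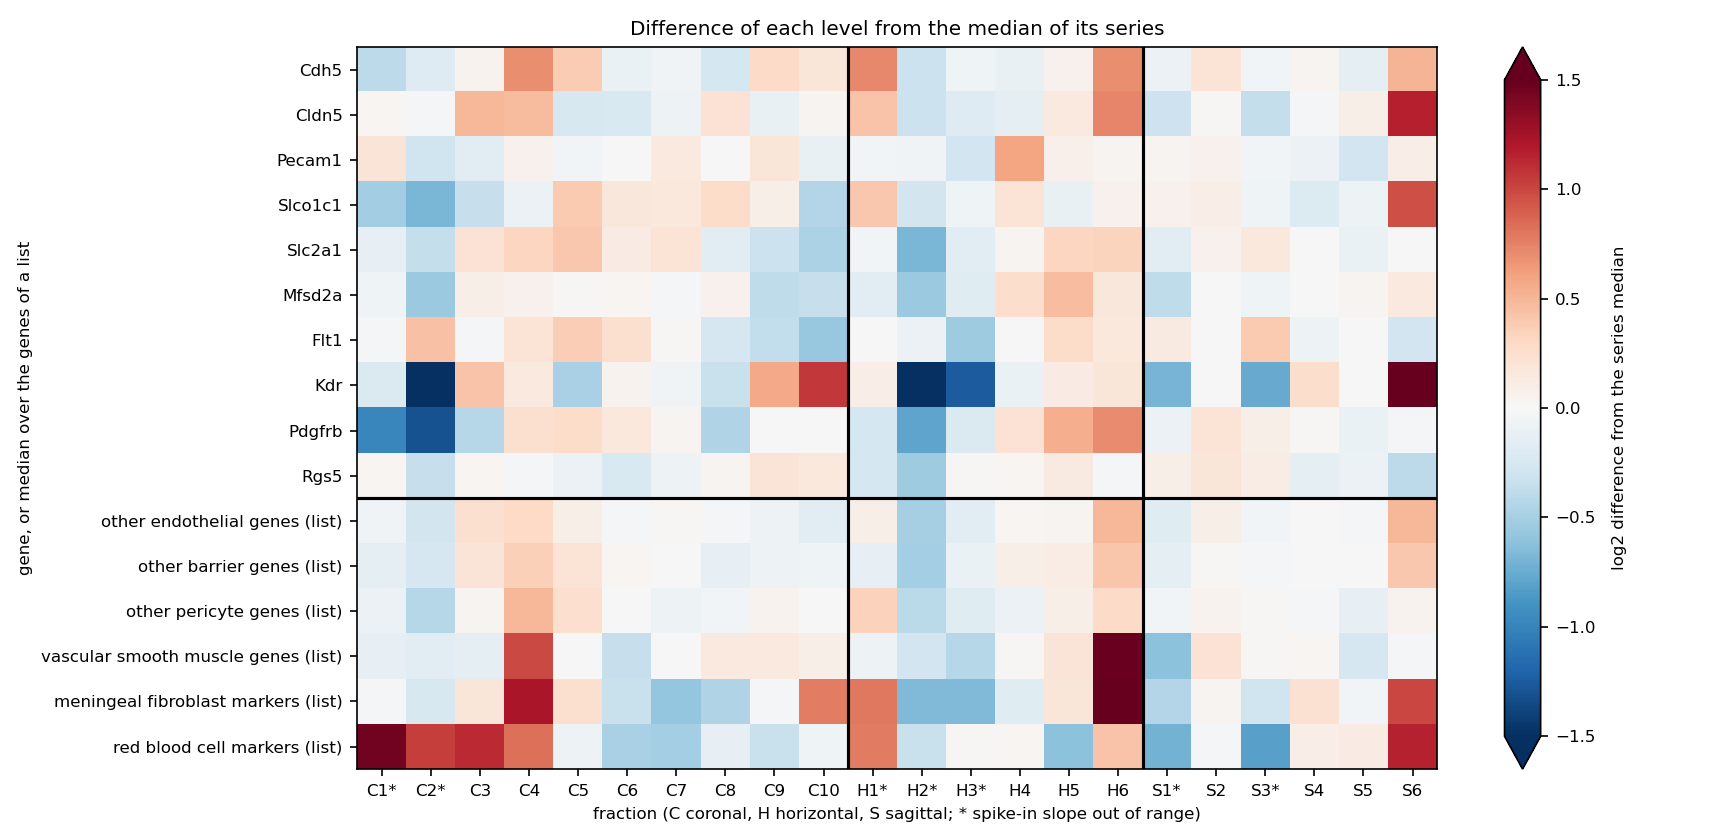
Difference of each level from the median of its series (log2, colour scale limited to -1.5 to 1.5) for the 10 genes and, under the line, for the median gene of 6 lists; columns are the 22 fractions, with a star for a spike-in slope out of range. Coronal fraction 2 and horizontal fraction 2 are blue for most genes, and sagittal fraction 6 is red for Cdh5, Cldn5, Slco1c1 and Kdr but blue for Flt1 and Rgs5.

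The study counts transcripts as similarly expressed when r of their log2 values over the fractions is above 0.85. By that measure 0 of the 45 pairs of members were similar, and the highest pair, Slc2a1 and Mfsd2a, had r = 0.68. On the 15 arrays in range 1 pair was, Slc2a1 and Flt1 (0.87). Over all arrays Kdr had 332 similar probes and Pdgfrb 297, Mfsd2a 71, Cldn5 58, Slco1c1 33, Slc2a1 16, Cdh5 and Rgs5 6 each, and Pecam1 and Flt1 0. The median probe had 58. On the arrays in range Flt1 had 262 and Pdgfrb 15, so these counts differed with the arrays that entered.

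After centring each series the median r of the 45 pairs was 0.34, with 39 pairs above 0. The median over all pairs of the 16691 genes tested was 0.03. On the arrays in range the median of the 45 pairs was -0.03, with 22 above 0, and that of all gene pairs -0.002. Single pairs had a similar r on both sets of arrays, such as Cdh5 and Cldn5 (0.62 and 0.57) or Cldn5 and Kdr (0.63 and 0.59).

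**Figure D4:**
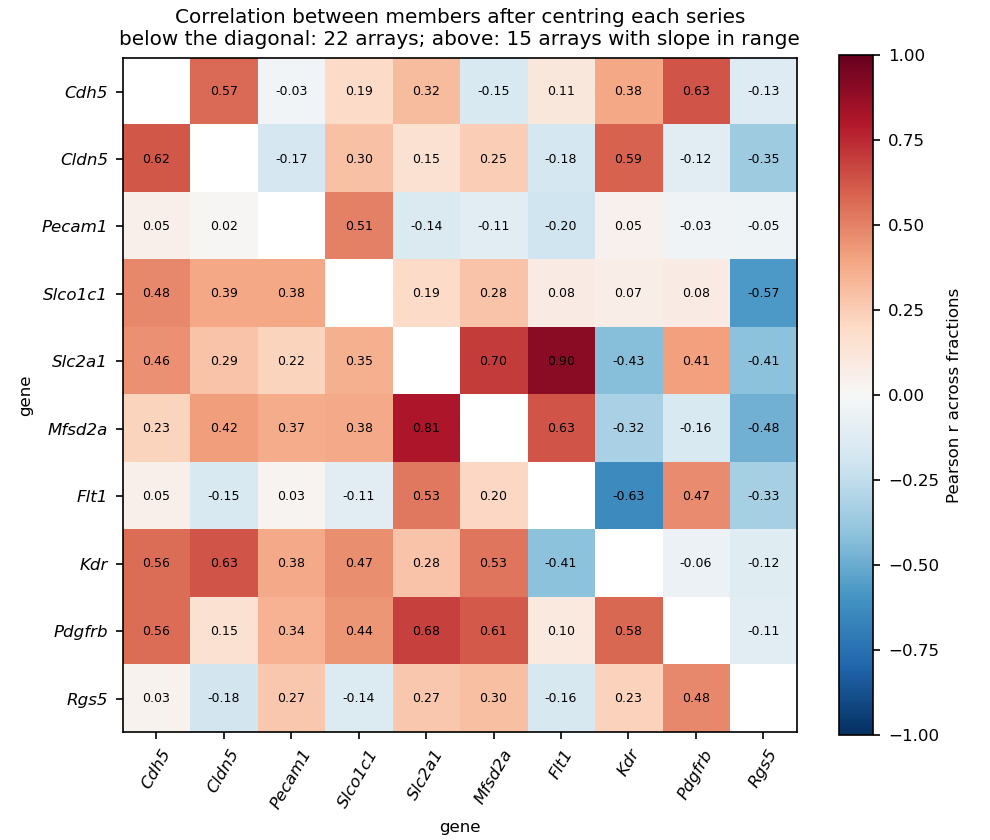
Pearson r between members across fractions after the mean of each series was removed, over all 22 arrays below the diagonal and over the 15 arrays in range above it. The highest value below is 0.81 for Slc2a1 and Mfsd2a and the highest above is 0.90 for Slc2a1 and Flt1. Flt1 with Kdr, read from its first probe only, is the lowest on both sides.

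The genes whose profile was most like the mean of the 8 endothelial members were Mcat (r = 0.95), Erbb2 (0.95), Vps28 (0.95), Tmem222 (0.94), Htra1 (0.94), Fbxl15 (0.94), Ecm1 (0.93), Atp6v1f (0.93), Lsr (0.93) and Tmem9 (0.93), over 22 arrays centred by series and 16691 genes. Lsr, a protein of the contacts where 3 cells meet, is the only member of the barrier list among them. These 10 were picked as the highest of all genes, so their r is not set against that of the members. For each of the 8 endothelial members against the mean of the other 7, r ran from -0.10 for Flt1 to 0.67 for Mfsd2a, which ranked 12324th and 1425th. The mean was led by Kdr, the most variable gene, and with each member divided by its SD only 2 of the 10 genes were again among the first 10. The gene nearest to each single member, named after the values were seen, was Pcolce for Cdh5 (0.89), Icam2 for Cldn5 (0.95), Gatd1 for Pecam1 (0.72), Stn1 for Slco1c1 (0.91), H6pd for Slc2a1 (0.94), Lamp1 for Mfsd2a (0.92), Fgf18 for Flt1 (0.84), Ptk7 for Kdr (0.97), Alas1 for Pdgfrb (0.96) and Snx13 for Rgs5 (0.87). Of these 10 genes only Icam2 is in the lists of vessel genes used here, and the next nearest to Cldn5 were Acvrl1 (0.94), Oaz1 (0.93), Sigirr (0.93) and Cyba (0.93).

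Low values gathered on fraction 2. Of the 10 genes, 6 had their lowest coronal level in fraction 2 and 8 their lowest horizontal level in fraction 2, where 36.6% and 36.7% of the 16691 genes did. Both arrays had a spike-in slope out of range and the largest shares of probes well above background in their series, 72.2% and 75.5%. Coronal fraction 2 was also the only array on its slide, so slide and fraction cannot be told apart there. The other coronal minima were in fraction 1 (Cdh5), fraction 5 (Cldn5) and fraction 10 (Slc2a1 and Flt1), and the other horizontal minima in fraction 3 (Pecam1 and Flt1). Flt1 had its highest coronal level in fraction 2.

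High values gathered on sagittal fraction 6, which pooled slabs 7 to 9 and so held the outermost tissue on that side. Of the 10 genes, 6 were highest there in the sagittal series, as were 33.2% of all genes. The difference from the median of fractions 1 to 5 was 1.54 log2 units for Kdr, 1.19 for Cldn5, 1.04 for Slco1c1 and 0.55 for Cdh5. It was 0.16 for Mfsd2a, 0.14 for Pecam1, -0.02 for Slc2a1 and -0.03 for Pdgfrb, and -0.29 for Flt1 and -0.48 for Rgs5. The median over all genes was 0.02. The endothelial members thus lay on both sides of it in this fraction. The sizes depend on the scaling, since this array had the lowest 75th percentile of all 22, an intensity of 260 against 446 to 604 in sagittal fractions 1 to 5. Without scaling the differences were 0.75 for Kdr, 0.30 for Cldn5, 0.06 for Slco1c1 and -0.48 for Cdh5, and the median over all genes was -0.97, so that these 4 genes were above that median either way. With arrays centred on their medians they were 1.40, 1.07, 0.99 and 0.53 against -0.07 over all genes. Of all probes past the sagittal linear threshold 3077 had a positive and 968 a negative term as reported, and 60 and 2705 without scaling.

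**Figure D5:**
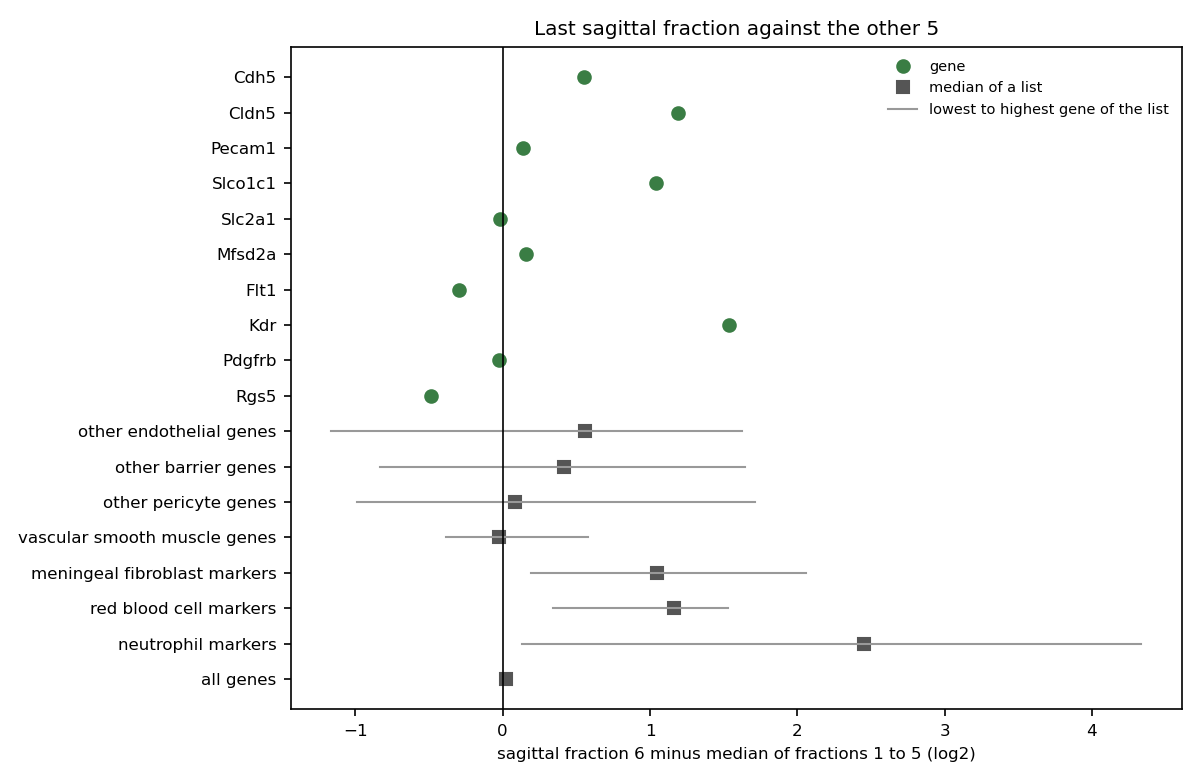
Level in sagittal fraction 6 minus the median of sagittal fractions 1 to 5 (log2), for the 10 genes (circles) and for lists of other genes (squares for the median gene, lines from the lowest to the highest gene). Kdr, Cldn5 and Slco1c1 are above 1, Rgs5 is at -0.48, and the medians of the meningeal, red blood cell and neutrophil lists are 1.05, 1.16 and 2.45.

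Several lists of other cells were high or low in the same fraction. All 8 meningeal fibroblast markers, all 5 red blood cell markers and all 6 neutrophil markers were above the median of the other sagittal fractions. The list medians were 1.05, 1.16 and 2.45. By the same measure 8530 of all 16691 genes were above 0. Summed levels in the sagittal series ran from 34.3 in fraction 1 to 135 in fraction 6 for the red blood cell markers, whose 5 genes were well above background on all arrays. For the neutrophil markers they ran from 0.66 in fraction 3 to 13.8 in fraction 6, and 4 of their 6 genes were well above background on all arrays. Hbb-bt, a beta globin, had a sagittal linear term of 2.28 ± 0.57 (SE, adjusted p = 0.020) and S100a8, a neutrophil calcium-binding protein, one of 5.07 ± 1.05 (adjusted p = 0.00786). Both calls rested on this array, since without sagittal fraction 6 the sagittal linear test had 0 of 39621 probes past the threshold and 2200 with an unadjusted p under 0.05 (limma). The 4 bone markers had a list median of 2.83, were also high in sagittal fraction 2, and none was well above background on all arrays. The list medians were 0.60 for the choroid plexus markers (6 of 7 above 0) and 0.74 for the skeletal muscle markers (3 of 4). They were -2.10 for the oligodendrocyte markers (1 of 5 above 0) and -1.86 for the hindbrain genes (0 of 7). The part of these cells in the levels of the endothelial genes was not tested.

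Further genes of the same cells were read from lists of other vessel genes, whose counts are to be read against the 19.8%, 6.57% and 10.2% of all probes past the coronal, horizontal and sagittal linear thresholds. Every sagittal linear call below was lost without sagittal fraction 6, as no probe passed that test then. The horizontal calls were nearly as dependent, since 9 of 39621 probes passed the horizontal test without horizontal fraction 1, 60 with the a107 covariate and 13 on the arrays in range. Of 30 further endothelial genes, 3 were past the coronal threshold, 8 the horizontal one, 6 that of the sagittal linear term and 0 that of the quadratic term. With single fractions left out these counts ran from 1 to 5 (coronal), 0 to 13 (horizontal) and 0 to 9 (sagittal). The horizontal count was 0 without horizontal fraction 1, 2 or 6. It was 13 without coronal fraction 2, where 6529 of 39621 probes passed the horizontal test. Under the other settings the coronal count ran from 0 to 4. The median fitted range of the 30 genes was 0.52 log2 units along the coronal series, against 0.99 over all probes, and 0.87 along the horizontal series, against 0.99. In the coronal series Vwf (von Willebrand factor) and Robo4 (a guidance receptor of endothelium) were highest in fraction 4 and Adgrf5 in fraction 6. In the horizontal series Vwf rose from 1.80 in fraction 2 to 3.90 in fraction 6 (range 1.93, adjusted p = 0.0197), and Icam2, an adhesion molecule, from 1.93 to 3.48 in the same fractions (1.41, 0.0441). Clec14a was highest in fraction 1 (-0.87) and lowest in fraction 4 (-2.38), with an adjusted p of 0.0287.

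The sagittal linear terms of that list were 1.56 ± 0.35 for Icam2 (adjusted p = 0.0117) and 1.47 ± 0.26 for Egfl7 (0.00419), a secreted factor of growing vessels. Podxl, which encodes podocalyxin of the luminal surface, had a term of -1.53 ± 0.42 (0.0312) that was 0.03 with normexp background correction, and its probe was not well above background in sagittal fraction 6. Icam2 and Egfl7 were highest in sagittal fraction 6, where Podxl was lowest. In that fraction 25 of the 30 genes were above the median of the other 5, as were 8530 of all 16691 genes.

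Of 22 other barrier genes tested, 4 passed the coronal test, 6 the horizontal test and 2 the sagittal linear test. With single fractions left out they were 2 to 4, 0 to 8 (0 without horizontal fraction 1) and 0 to 3, and under the other settings the coronal count ran from 0 to 5. Along the coronal series these included Lef1 (a transcription factor of the Wnt pathway, range 1.25), Slc7a5 (a carrier of large neutral amino acids, 1.11) and Slc7a1 (a carrier of cationic amino acids, 0.99). Slc7a5 and Slc7a1 were highest in fractions 4 and 5, as Slc2a1 was in fraction 5. Along the horizontal series Slc16a1, the lactate carrier MCT1, had a range of 2.57 (adjusted p = 0.0107), although its probe was not well above background in fraction 1, the lowest point. Itm2a had one of 1.57 and Abcb1a, the P-glycoprotein efflux pump, one of 1.44. In the sagittal series Slc38a5, a glutamine carrier, had a linear term of 1.74 ± 0.37 (0.00835), and Slco1a4, a carrier of the Slco1c1 family, one of 0.87 ± 0.22 (0.0187) that was -0.02 without scaling of the arrays.

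Of 14 other pericyte genes, 2 passed the coronal test, 2 the horizontal test and 1 the sagittal linear test. With single fractions left out they were 1 to 3, 0 to 6 (0 without horizontal fraction 1, 2 or 5) and 0 to 1, and under the other settings the coronal count ran from 0 to 4. Cspg4, the NG2 proteoglycan, which oligodendrocyte precursors also make, was highest in coronal fraction 6 (range 1.30), and Mcam in coronal fraction 10 (1.00). Vtn and Notch3 had horizontal ranges of 2.34 and 1.87, with their highest levels in fractions 6 and 5. Higd1b had a sagittal linear term of 1.77 ± 0.37 (adjusted p = 0.00826), and that of Rgs5, which did not pass, was -0.54 (0.162).

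Of 7 vascular smooth muscle genes tested, 4 passed the horizontal test and 0 the other 3 tests, and the 4 became 0 without horizontal fraction 1 or 6. Cnn1 (calponin) went from -3.08 in horizontal fraction 1 to 0.85 in fraction 6 (range 3.83, adjusted p = 0.0102), Acta2 (smooth muscle actin) had a range of 3.20 (0.0129) and Tagln (transgelin) one of 2.55 (0.0244). All 3 were highest in fraction 6, where Avp, a ventral gene, the summed meningeal markers (231) and the summed microglia markers (88.0) were highest as well, and their part in these levels was not tested. The largest horizontal range among the 10 members was 1.43, that of Kdr.

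Ligands and receptors of vessel growth were tested as well. Of 15 ligands, 2 were past the threshold along the coronal series, Pdgfb (range 1.68, adjusted p = 0.00892), the ligand of Pdgfrb, and Ndp (0.86), which encodes norrin. Pdgfb was lowest in coronal fraction 2, an array out of range on which 36.6% of all genes were lowest, and highest in fraction 6. Apln, which encodes apelin, was past it along the horizontal series (1.32) and Ndp for the sagittal linear term (1.00 ± 0.28). Of 13 receptors, Nrp2 (range 2.12) and Unc5b (1.66) passed the coronal test, 4 passed the horizontal test with Nrp2 (2.60), Unc5b (2.07) and Reck (1.52) the largest ranges, and Acvrl1 (1.48 ± 0.28) and Tspan12 (1.00 ± 0.30) for the sagittal linear term. Nrp2 and Unc5b are also made by neurons. With single fractions left out the ligand counts were 1 to 7, 0 to 2 and 0 to 2 for the coronal, horizontal and sagittal linear tests. The 7 came without coronal fraction 1, where 10710 of 39621 probes passed the coronal test. The receptor counts were 1 to 4, 0 to 8 (0 without horizontal fraction 1, 3, 4 or 5) and 0 to 2. Under the other settings the coronal counts of both lists ran from 0 to 3. No gene of these 6 lists passed the sagittal quadratic test.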

How the data were processed

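Total RNA of 22 brain fractions was measured on 1-colour Agilent SurePrint G3 Mouse arrays (Cy3, designed on mm9). Per the file headers, the authors extracted spots with Feature Extraction 10.10.1.1, and the deposited scanner files hold background-subtracted processed intensity, not log transformed. A second table deposited by the authors holds log2 values, of which 99.899% lay within 0.02 of the levels used here. Outlier and control spots were left out (131 to 187 outlier spots per array), the spots of a probe were averaged, and log2 intensity minus the 75th percentile was analysed for 55600 probes. Of 28087 RefSeq probes, 26553 were named through a RefSeq gene table of another build.

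Position was tested with limma 3.58.1 in R 4.3.3, with 9 coefficients and 13 residual degrees of freedom over 22 arrays. The spread is the scatter of single arrays around the curves and holds no spread between animals. The Benjamini-Hochberg adjustment ran over 39621 probes. From the other lists, up to 3 genes past the threshold with the largest fitted range or linear term were named. Members and lists were chosen with earlier results of these data known. Tables and figures were made with Python 3.11.15, numpy 2.4.6, pandas 2.3.3 and matplotlib 3.10.9. The models were tested on simulated data. Alternatives were the background correction (normexp on the median signal, offset 50), scaling, filters, probe choice, slide, spike-in signal, linear terms alone, single series and leaving out each fraction.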

Additional observations from a re-analysis of the deposited data

Results flagged for a closer look

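In 3 of the 30 groups formed by a gene and a series, the highest or lowest fraction stood apart from the others by Dixon's measure, the gap to the nearest value over the whole range, where chance gives about 1 in 20 groups. Cldn5 was at 5.51 in sagittal fraction 6 and at most 4.43 in the other 5 (gap over range 0.704, critical value 0.625). Slco1c1 was at 2.06 in sagittal fraction 6 and at most 1.19 in the other 5 (0.742, critical value 0.625), and its other probe was at 2.40 and at most 1.39 (0.748). Kdr was at 1.88 in coronal fraction 2, on an array with the spike-in slope out of range and alone on its slide, and at least 3.42 in the other 9 fractions (0.498, critical value 0.466). The other Kdr probe was lowest there too, at 1.31, but the next value was 1.46 and the gap over range 0.166, below the critical value.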

How the results depend on the processing

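Of the 10 genes, 3 were past the threshold along the coronal series. The number was 0 with arrays centred on their medians, with the a107 spike-in signal as covariate, with the series fitted alone and with linear terms only. It was 1 on the arrays in range and with the slide as block. With single fractions left out it lay between 1 and 4, and was 1 without coronal fraction 2, 5, 6, 7 or 9. Of 39621 probes, 7850 passed the coronal test as reported, 2887 with median centring, 2821 with linear terms only and 4751 with the slide as block. Between 4869 and 5853 passed without coronal fraction 2, 5, 6, 7 or 9. Along the horizontal series the number of members past the threshold was 0 and became 1 with probes detected on all arrays. It lay between 0 and 1 with fractions left out (1 without coronal fraction 2). Where it was 1, 4167 of 25815 and 6529 of 39621 probes passed the horizontal test, against 2604 of 39621 as reported. For the sagittal linear term the number of members was 1. It became 0 with median centring, quantile normalization, no scaling, the a107 covariate, arrays in range, the series alone and linear terms only. With fractions left out it lay between 0 and 1 (0 without sagittal fraction 6). Of 39621 probes, 4045 passed this test as reported, 1874 with quantile normalization and 2765 without scaling. With median centring 3 did and with linear terms only 4. With the series alone or without sagittal fraction 6, 0 did. The 0 of 10 in those settings is thus no result about the members. The sagittal quadratic number of members was 0 throughout. The cause was not tested. The sagittal linear term of Slco1c1, 0.69 as reported, turned to -0.20 without scaling and lay between -0.24 (without sagittal fraction 6) and 0.86 with fractions left out.

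Of the 10 genes most like the endothelial mean, 4 were again among the first 10 with median centring, 2 with quantile normalization, 4 without scaling, 1 on the arrays in range and 2 with members divided by their SD, an alternative chosen after seeing the data, as was the other probe of Kdr and Slco1c1. With fractions left out between 4 and 10 were (5 without coronal fraction 1 and 4 without sagittal fraction 6). Array medians over the tested probes ran from -1.81 to -1.21, so median centring moves arrays against each other by up to 0.60 log2 units. No paired analysis was possible because fraction numbers are positions along different axes in different mice. The design has no replicate fraction. All members were well above background on every array. That does not show that background left their levels unchanged on the arrays out of range. For the members r with the a107 signal ran from -0.81 for Mfsd2a to -0.13 for Flt1, and was -0.74 for Pdgfrb. The part of background in the members' levels was not tested.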
